A study of Homo sapiens with 15 samples.

Results

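The genes described here encode the protein folding machinery of human cells: heat shock proteins, J-domain proteins and chaperonins. They were chosen by gene symbol alone, as the HSPA, HSPB, HSP90, DNAJA, DNAJB, DNAJC and CCT series together with HSPD1, HSPE1, HSPH1, TCP1 and HSF1. Symbols ending in P and a number were left out. The rule found 90 of the 18417 genes measured, of which 11 are HSP90 pseudogene entries and 79 are other genes. HSPA1A and HSPA1B, the classical inducible HSP70 genes, share all 5 of their probesets and so have no value of their own here.

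HSP70 proteins bind short hydrophobic stretches of unfolded proteins and release them on ATP exchange. J-domain proteins deliver the clients and trigger ATP hydrolysis, and HSP110 proteins exchange the nucleotide. HSP90 matures kinases and receptors, small heat shock proteins hold aggregating proteins, and the cytosolic chaperonin CCT, a ring of different subunits, folds actin and tubulin. HSF1 is the transcription factor that switches on many of these genes under heat or protein damage.

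RNA was measured on 15 arrays in 5 groups of 3. HUVEC, which are endothelial cells of the human umbilical vein, had been kept for 6 h in EGM2 medium with exosomes of JinB8 cells (JINB8-treated) or of Jurkat cells (JK-treated). Other HUVEC had no treatment (untreated), and the labels give neither a medium nor a time for them. The other arrays held RNA of the exosomes themselves, precipitated from conditioned medium of JinB8 (JINB8) or Jurkat (JK) cells. Jurkat is a human T cell leukaemia line, and JinB8 is a Jurkat mutant that lacks the surface receptor CD47, so that CD47 and any other difference between these lines cannot be told apart. Whether the numbered replicates came from different cultures is not in the labels, so p-values reflect only the spread between these arrays, which may be technical.

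Values are deposited log2 signals, on which a difference of 1 is a doubling. The array medians averaged 5.11 in JINB8-treated and 5.14 in JK-treated HUVEC, against 6.97 in untreated HUVEC, and 5.12 in JINB8 and 5.11 in JK exosome RNA. The untreated arrays therefore stood on a level of their own, and whatever set that level cannot be told apart from exposure. Values spread less on the exosome arrays, with a standard deviation over genes of 1.55 (JINB8) and 1.52 (JK), than on the treated HUVEC arrays, with 2.20 in both groups. All 18 T cell markers tested were higher in exosome RNA than in treated HUVEC (100%, against 45.3% of all genes). Of 16 endothelial markers, 15 were lower (93.8%, against 49.7% of all genes). Of 12 mural or fibroblast markers, 8 were also higher (66.7%) and 3 lower, so a higher signal in exosome RNA does not by itself mark T cell origin. CD47 signal was 4.58, 4.67 and 4.94 in JINB8 exosomes and 4.72, 4.69 and 4.72 in JK exosomes, a difference of 0.02 (limma adjusted p = 0.988), so this probeset does not check the label of the mutant line. Among the 6 treated arrays, replicate 3 of each group stood apart from the other 2 of its group: over all genes, deviations from the common mean correlated at 0.38 between JK-treated replicates 1 and 2 but at -0.36 and -0.32 with replicate 3, and at 0.29 between JINB8-treated replicates 1 and 2 but at -0.31 and -0.1 with replicate 3. JK-treated replicate 3 correlated at 0.08 and -0.03 with JINB8-treated replicates 1 and 2, and JINB8-treated replicate 3 at 0.01 and -0.03 with JK-treated replicates 1 and 2, so each was closer to those arrays of the other group than to those of its own. Whether these labels hold was not tested, and the groups are used as labelled. Comparisons of the treated groups are also given without both of these arrays, an alternative chosen after seeing the data. Those arrays were singled out because they differ, so calls made without them lend no support to a difference between the groups.

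In exosome RNA, transcripts of 5 cytosolic chaperone genes were higher from the CD47-deficient line, while other cytosolic chaperones did not pass. Of the 90 family genes, 5 were higher in JINB8 than in JK exosomes at an adjusted p under 0.05 and 0 were lower. That is 5.56% of the family, against 0.668% of all genes higher and 0.0109% lower. They were HSPA8, the constitutive cytosolic HSP70, HSP90AA1 and HSP90AB1, the cytosolic HSP90 genes, and TCP1 and CCT7, subunits of the chaperonin CCT. All p-values between groups are from limma, adjusted by the Benjamini-Hochberg method over the 18417 genes, and exact permutation of 3 against 3 arrays could not go below 0.1.

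HSPA8 signal was 8.87, 8.89 and 9.08 in JINB8 exosomes, against 7.88, 7.83 and 7.55 in JK exosomes. The groups were far apart and did not overlap, and the difference of 1.19 ± 0.10 (SE, n = 3 each) is a 2.28-fold higher level (adjusted p = 0.000162). HSP90AB1 gave 6.97, 6.97 and 7.32 in JINB8 exosomes and 6.07, 6.16 and 5.55 in JK exosomes, 2.23-fold higher (log2 difference 1.16 ± 0.15, adjusted p = 0.00193). Its partner HSP90AA1, the stress-inducible form, gave 6.40, 6.51 and 6.46 in JINB8 exosomes and 5.73, 5.68 and 5.36 in JK exosomes, 1.82-fold higher (0.87 ± 0.10, adjusted p = 0.000981). JK replicate 3 was the lowest array for all 3 of these genes, and each remained past the threshold without it.

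TCP1 signal was 7.61, 7.41 and 7.71 in JINB8 exosomes and 6.69, 6.82 and 6.68 in JK exosomes, a 1.79-fold difference (log2 0.84 ± 0.09, adjusted p = 0.000665). CCT7 gave 6.98, 7.34 and 7.29 in JINB8 exosomes and 6.68, 6.47 and 6.67 in JK exosomes, 1.52-fold higher (0.60 ± 0.10, adjusted p = 0.0183). Neither gene's groups overlapped, as held for 2370 of all 18417 genes between the exosomes. The CCT7 call was lost without JINB8 replicate 2 (adjusted p = 0.088), JINB8 replicate 3 (0.106), JK replicate 2 (0.0745) or JK replicate 3 (0.0808), while the calls of HSPA8, HSP90AA1, HSP90AB1 and TCP1 held without any of the 6 arrays.

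**Figure D1:**
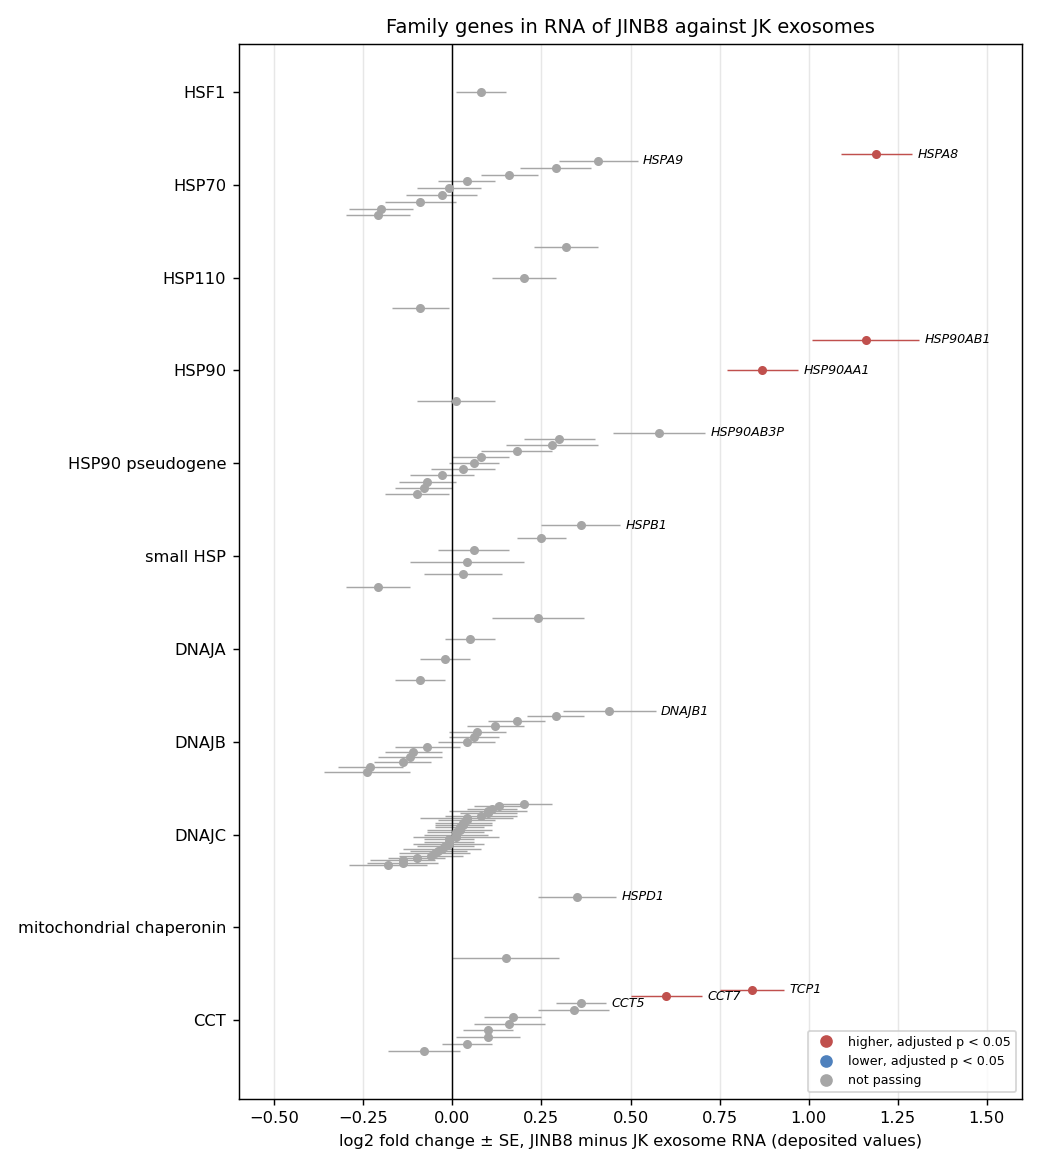
Log2 fold change (x axis, points, with the standard error as bars) of each of the 90 family genes between JINB8 and JK exosome RNA, 3 arrays each, on the deposited values, in rows by role. HSPA8, HSP90AB1, HSP90AA1, TCP1 and CCT7, in red, lie between 0.60 and 1.19, and all other members, in grey, lie between -0.24 and 0.58.

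Of the 8 CCT genes that did not pass, 7 were higher in JINB8 exosomes by sign alone (87.5%, against 51.3% of all genes), with a median log2 difference of 0.13, against 0.00 for all genes tested. These genes were sorted by their own calls and measured on the same arrays. The count is therefore a description and not a test. CCT5 came nearest to the threshold, with 5.34, 5.30 and 5.42 in JINB8 exosomes and 4.99, 5.03 and 4.96 in JK exosomes (0.36 ± 0.07, adjusted p = 0.0532), and CCT3 differed by 0.34 ± 0.10 (adjusted p = 0.203). The HSP90AB3P entry, a pseudogene copied from HSP90AB1, differed by 0.58 ± 0.13 (adjusted p = 0.0712). Pseudogene probesets can bind RNA of the parent gene, so this entry cannot be read as a separate transcript with certainty. It passed without JINB8 replicate 1 (0.69, adjusted p = 0.0395).

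No J-domain gene and no endoplasmic reticulum or mitochondrial chaperone passed between the exosomes. Many J-domain genes, among them DNAJB9 and DNAJC3, lay among the dimmest 40% of genes on these arrays, as did HSPA5 and HSPE1. A difference in such genes could be missed, so the compartments are not contrasted here. The endoplasmic reticulum forms differed by 0.29 ± 0.10 for HSPA5 (adjusted p = 0.405) and 0.01 ± 0.11 for HSP90B1 (adjusted p = 0.996). The mitochondrial forms differed by 0.41 ± 0.11 for HSPA9 (adjusted p = 0.151), 0.35 ± 0.11 for the chaperonin gene HSPD1 (adjusted p = 0.300) and 0.15 ± 0.15 for its lid HSPE1 (adjusted p = 0.903). DNAJB1, the main cytosolic J-domain partner of inducible HSP70, differed by 0.44 ± 0.13 (adjusted p = 0.215), and HSPB1 by 0.36 ± 0.11 (adjusted p = 0.237). HSPH1, with 0.20 ± 0.09 (adjusted p = 0.589), and HSF1, with 0.08 ± 0.07 (adjusted p = 0.878), lay closer to 0, as did the unfolded protein response genes DNAJB9 (0.06 ± 0.07, adjusted p = 0.931) and DNAJC3 (-0.01 ± 0.10, adjusted p = 0.993).

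Without adjustment, 24 of the 90 genes had a p under 0.05 (26.7%), against 8.06% of all genes. Of 37 co-chaperones and other folding helpers outside the family, 0 passed the adjusted threshold, 4 had an unadjusted p under 0.05 by limma, and their median difference was 0.04. Of 29 endoplasmic reticulum folding and stress genes outside the family, 0 passed, 2 had an unadjusted p under 0.05, and the median was 0.02. The summed T cell marker list moved slightly with the groups, with mean signals of 5.71 to 5.73 in JINB8 exosomes and 5.56 to 5.69 in JK exosomes, although 0 of its 18 genes passed and 3 had an unadjusted p under 0.05. Its part in the chaperone differences was not tested. Signal was low for much of the family in these libraries: 50 of the 90 genes lay among the dimmest 40% of genes on the exosome arrays, none of them among the 5 that passed.

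The promoters of HSPA8 and TCP1 are shown because, of the 5 genes that passed, these are the ones that hold letters of the heat shock element, where HSF1 binds. These sequences are from RefSeq on GRCh38.p14 and lie upstream of the annotated start. The element was searched in the 250 bases before the start, on both strands, as GAANNTTC or TTCNNGAA for the short form, and as GAANNTTCNNGAA or TTCNNGAANNTTC for the long form, which contains the short form. Capitals mark the matches. The HSPA8 stretch is chr11:123062167-123062378 on the minus strand, from 242 to 31 bases before the start, and holds the long form at either end. The TCP1 stretch is chr6:159789814-159789845 on the minus strand, from 243 to 212 bases before the start, and holds the short form.
HSPA8: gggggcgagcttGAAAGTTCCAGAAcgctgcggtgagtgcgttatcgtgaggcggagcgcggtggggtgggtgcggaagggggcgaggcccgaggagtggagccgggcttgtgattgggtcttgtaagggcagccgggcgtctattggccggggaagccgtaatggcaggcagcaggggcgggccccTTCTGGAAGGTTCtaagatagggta
TCP1: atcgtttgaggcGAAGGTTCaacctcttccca

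The long form stood in 3 of the 70 members with a RefSeq promoter (4.29%), HSPA8, HSPA6 and DNAJB6, against 120 of all 27303 promoters (0.44%). The short form stood in 13 of 70 (18.6%), against 11.7% of all. HSP90AA1, HSP90AB1 and CCT7 had no match, which says only that these letters are not in that window. A match is a description of the sequence and was not set against binding data.

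No such difference was detected in the cells that had received the exosomes. Between JINB8-treated and JK-treated HUVEC, 0 of the 90 genes and 0 of all genes (0%) passed limma's adjusted threshold, and 8 members had an unadjusted p under 0.05 (8.89%), against 9.11% of all genes. With array weights 239 of all genes were higher and 138 lower, and 0 members in either direction. Without both arrays numbered 3, 170 of all genes were higher (0.923%) and 130 lower, and the members higher were HSPH1 and HSPA2 (2.22%). HSPA8 gave 12.23, 12.34 and 12.34 in JINB8-treated HUVEC and 12.25, 12.29 and 12.17 in JK-treated HUVEC, overlapping values with a difference of 0.06 ± 0.08 (adjusted p = 0.863). HSP90AB1 differed by -0.02 ± 0.10, HSP90AA1 by 0.16 ± 0.08, TCP1 by 0.04 ± 0.09 and CCT7 by -0.07 ± 0.11, with adjusted p from 0.602 to 0.964.

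The difference between lines was tested against itself in exosomes and in cells, as an interaction. It was larger in exosome RNA by 1.13 ± 0.13 for HSPA8 (adjusted p = 0.00105), 1.18 ± 0.19 for HSP90AB1 (adjusted p = 0.00891), 0.80 ± 0.12 for TCP1 (adjusted p = 0.00485) and 0.71 ± 0.13 for HSP90AA1 (adjusted p = 0.0153). CCT7 and CCT5 also passed, with 0.67 ± 0.14 (adjusted p = 0.0397) and 0.50 ± 0.11 (adjusted p = 0.0467). These 6 members (6.67%) compare with 145 of all genes, or 0.787%. The interaction uses the same exosome arrays as the comparison between exosomes, so it is no separate evidence for the exosome differences. Without both treated arrays numbered 3 these 6 genes were past the threshold, with 0.57 to 1.27, among 13 members and 5.63% of all genes. Of the other members passing there, HSP90AB3P (0.73), HSPB9 (0.63) and DNAJB6 (0.47) went the same way. HSPH1 (-1.25, limma adjusted p = 6.5e-05), HSPA2 (-0.81), HSPA13 (-0.58) and HSPA6 (-0.49) went the opposite way. Those arrays were left out because they differ, so this fit lends no support to the interaction.

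**Figure D2:**
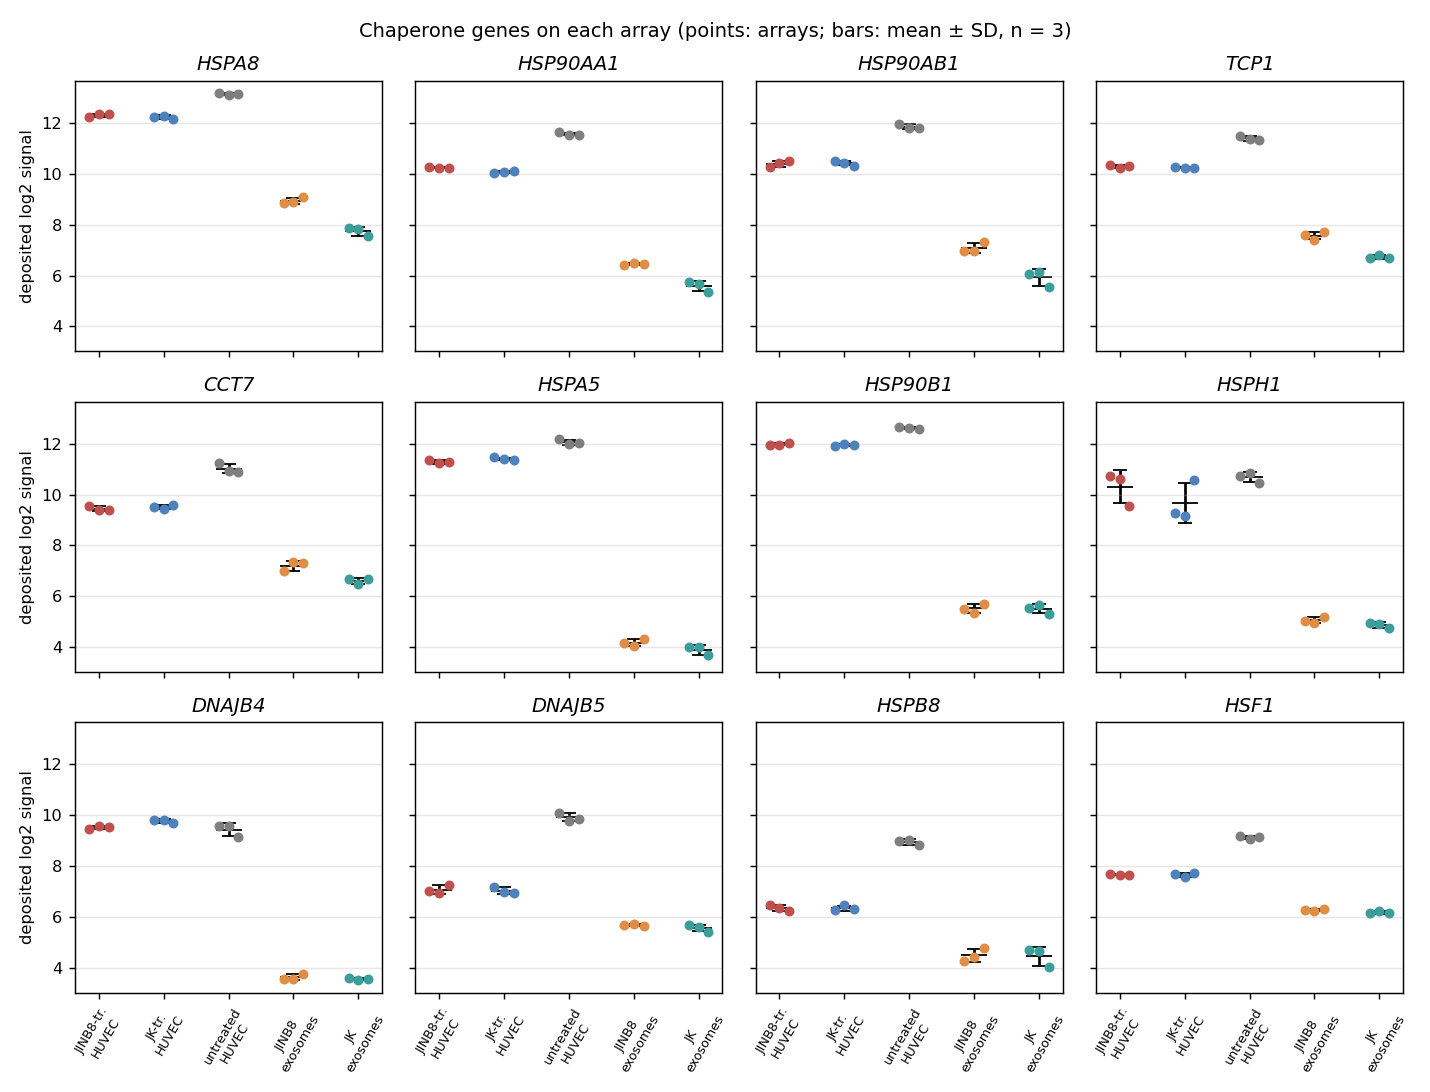
Deposited log2 signal (y axis) of 12 family genes on each of the 15 arrays, with the mean and SD of each group of 3. HSPA8, HSP90AA1, HSP90AB1, TCP1 and CCT7 are higher in JINB8 than in JK exosomes and differ by at most 0.16 on average between the treated HUVEC groups, HSPH1 is split within both treated groups, and most genes are higher on the untreated arrays, whose median is also higher.

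The members with the smallest p between the treated cells were the HSP90AA2P entry, higher by 0.30 ± 0.10 in JINB8-treated HUVEC (adjusted p = 0.403), HSPB9, with -0.37 ± 0.14 (adjusted p = 0.474), and DNAJC19, a subunit of the mitochondrial import motor, with -0.30 ± 0.12 (adjusted p = 0.474). A dimmer DNAJC19 probeset gave overlapping values, 4.73, 4.7 and 4.44 in JINB8-treated and 4.67, 4.53 and 4.54 in JK-treated HUVEC. The widest difference by size was in HSPH1, the cytosolic HSP110, with 0.63 ± 0.34 (adjusted p = 0.615). Its signal was 10.73, 10.63 and 9.57 in JINB8-treated HUVEC and 9.29, 9.17 and 10.58 in JK-treated HUVEC. Replicates 1 and 2 of the JINB8-treated group and replicate 3 of the JK-treated group were high, the other 3 arrays were low, and the spread within each group exceeded the difference between them.

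HSPA2, an HSP70 best known from sperm development, showed the same split at lower signal, with 7.63, 7.26 and 6.73 in JINB8-treated HUVEC and 6.79, 6.51 and 7.41 in JK-treated HUVEC. HSPA13, a microsomal HSP70 relative, gave 9.15, 8.97 and 8.49 in JINB8-treated HUVEC and 8.77, 8.60 and 9.25 in JK-treated HUVEC. Replicate 3 of both groups also stood apart over all genes, as given above. With each array left out in turn, the HSPH1 difference ranged from 0.38 to 1.08 and its adjusted p from 0.128 to 0.99. It was largest without JK-treated replicate 3 or JINB8-treated replicate 3, and no call was made in any of these fits. Without both arrays numbered 3 it was 1.45 (adjusted p = 0.000172), and that of HSPA2 was 0.80 (adjusted p = 0.0165).

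Against untreated HUVEC, exposure was read after quantile normalization over the 9 HUVEC arrays, because on the deposited scale nearly every gene was lower in exposed cells. The median log2 difference of all genes on the deposited scale was -1.68 for JK-treated and -1.71 for JINB8-treated cells, and that of the family -1.56 and -1.58. After quantile normalization the medians were 0.02 for all genes in both comparisons, and 0.05 and 0.00 for the family. The changes below are thus relative to the other genes of the same cells. Equal amounts of RNA were labelled for all arrays, so the signals do not show the number of cells or the RNA per cell. What set the level of the untreated arrays was not tested. Both comparisons use the same untreated arrays.

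In JK-treated HUVEC 19 family genes were higher (21.1%, against 26.2% of all genes) and 20 were lower (22.2%, against 22.4%). In JINB8-treated HUVEC 21 were higher (23.3%, against 26%) and 22 were lower (24.4%, against 23.3%). By this scale the family changed about as often as genes in general, in both directions. With median centring 42.2% of the family was higher in JK-treated cells, against 35.1% of all genes, and 46.7% in JINB8-treated cells, against 38.1%. HSF1 itself did not pass, with 0.08 ± 0.08 in JK-treated (adjusted p = 0.430) and 0.08 ± 0.08 in JINB8-treated cells (adjusted p = 0.387). With median centring, under which the median of all genes was 0.10 in JK-treated and 0.13 in JINB8-treated cells, HSF1 passed as higher in both (0.31 and 0.38, adjusted p = 0.0116 and 0.00314).

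Among the 10 HSP70 genes, HSPA5 and HSPA13 were higher and HSPA6 was lower with either exosome, and HSPA14 was higher in JINB8-treated cells (0.30 ± 0.09, adjusted p = 0.0176), a call lost without JINB8-treated replicate 1 (adjusted p = 0.0608) or untreated replicate 2 (0.0517) or 3 (0.0616). HSPA13, with 0.64 ± 0.18 in JK-treated and 0.63 ± 0.18 in JINB8-treated cells, lost its call in JINB8-treated cells without replicate 1 (0.48, adjusted p = 0.0538). HSPA5, which encodes BiP, the HSP70 of the endoplasmic reticulum, gave normalized signals of 11.84, 11.76 and 11.78 in JK-treated and 11.74, 11.60 and 11.66 in JINB8-treated cells, against 11.26, 11.16 and 11.23 in untreated cells. Every exposed array was above every untreated array, with log2 differences of 0.57 ± 0.08 in JK-treated (adjusted p = 9.89e-05) and 0.45 ± 0.08 in JINB8-treated cells (adjusted p = 0.000529). Such separation is common: exposed and untreated arrays did not overlap for 10329 of all 18417 genes in JK-treated and 10619 in JINB8-treated cells. HSP90B1, its HSP90 counterpart in the same compartment, gave 12.23, 12.27 and 12.29 in JK-treated and 12.27, 12.26 and 12.39 in JINB8-treated cells, against 11.87, 11.94 and 11.90 in untreated cells. It was higher by 0.36 ± 0.07 in JK-treated (adjusted p = 0.002) and by 0.40 ± 0.07 in JINB8-treated cells (adjusted p = 0.000969). The size depends on the scaling: with median centring HSPA5 was higher by 1.13 in JK-treated and 1.06 in JINB8-treated cells and HSP90B1 by 1.11 and 1.20, while on the deposited scale all 4 differences were negative (-0.65, -0.78, -0.67 and -0.63).

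Of the 70 members with a RefSeq promoter, these 2 genes (2.86%) alone hold the letters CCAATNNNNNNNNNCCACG of the endoplasmic reticulum stress element. Those exact letters stand in 22 of all 27303 promoters (0.0806%). Only the 250 bases before the start were searched, on both strands. A match describes the sequence, was not set against binding data, and its part in the changes above was not tested. Capitals mark the matches. The HSPA5 stretch is chr9:125241379-125241421 on the minus strand, from 78 to 36 bases before the start. The HSP90B1 stretch is chr12:103930204-103930351 on the plus strand, from 206 to 59 bases before the start, and its last match lies on the opposite strand.
HSPA5: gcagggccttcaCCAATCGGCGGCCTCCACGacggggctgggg
HSP90B1: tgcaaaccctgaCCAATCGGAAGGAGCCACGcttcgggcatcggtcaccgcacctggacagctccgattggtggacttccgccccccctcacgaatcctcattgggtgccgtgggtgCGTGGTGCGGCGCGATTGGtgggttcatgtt

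The other endoplasmic reticulum genes did not move as a block. DNAJB9, which encodes ERdj4, was higher by 0.42 ± 0.11 in JINB8-treated cells (adjusted p = 0.00861), and did not pass in JK-treated cells with 0.24 ± 0.11 (adjusted p = 0.1). DNAJC3, which encodes the inhibitor P58IPK, did not pass in JK-treated (0.22 ± 0.13, adjusted p = 0.179) or JINB8-treated cells (0.19 ± 0.13, adjusted p = 0.242), and passed as higher in JINB8-treated cells without their replicate 3 (0.32, adjusted p = 0.0483) and in both with median centring (0.47 and 0.51). Of the 29 endoplasmic reticulum folding and stress genes outside the family, 11 were higher and 4 lower in JK-treated cells. That is 37.9% and 13.8%, against 26.2% and 22.4% of all genes. In JINB8-treated cells 9 were higher (31%, against 26%) and 6 lower (20.7%, against 23.3%). Their median was 0.05 in both comparisons.

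HSPA6 is a strictly stress-inducible HSP70 gene, and it was among the dim genes here. Its normalized signal was 4.65, 4.76 and 5.01 in JK-treated and 5.03, 5.0 and 4.91 in JINB8-treated cells, against 5.22, 5.93 and 5.75 in untreated cells. The difference was -0.83 ± 0.16 in JK-treated (adjusted p = 0.00132) and -0.66 ± 0.16 in JINB8-treated cells (adjusted p = 0.00528). Its promoter and that of DNAJB6 hold the long heat shock element and are shown for comparison with HSPA8, which did not pass with 0.05 ± 0.07 in JK-treated (adjusted p = 0.631) and 0.11 ± 0.07 in JINB8-treated cells (adjusted p = 0.247). With median centring HSPA8 passed as higher, by 0.88 in JK-treated and 1.0 in JINB8-treated cells (adjusted p = 2.68e-06 and 8.42e-07). The HSPA6 stretch is chr1:161524348-161524490 on the plus strand, from 192 to 50 bases before the start, and also holds the short form. The DNAJB6 stretch is chr7:157336861-157336897 on the plus strand, from 143 to 107 bases before the start.
HSPA6: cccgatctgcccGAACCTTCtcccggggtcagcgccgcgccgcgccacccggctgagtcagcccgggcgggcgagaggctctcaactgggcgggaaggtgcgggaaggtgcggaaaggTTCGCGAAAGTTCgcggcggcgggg
DNAJB6: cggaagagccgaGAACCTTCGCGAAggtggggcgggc

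Of the HSP110 genes, HSPA4L was higher in JK-treated (0.45 ± 0.08, adjusted p = 0.00122) and JINB8-treated cells (0.67 ± 0.08, adjusted p = 6.58e-05). HSPH1 passed in JINB8-treated cells with 0.98 ± 0.35 (adjusted p = 0.0346) and did not in JK-treated cells with 0.41 ± 0.35 (adjusted p = 0.358). The JINB8 call rests on replicates 1 and 2: it was lost without either (adjusted p = 0.127 and 0.112) and without any untreated array (0.0545 to 0.0947). It was kept without JINB8-treated replicate 3 (1.34, adjusted p = 0.00618).

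HSPB8, the partner of BAG3 in selective autophagy, gave normalized signals of 6.80, 6.99 and 6.89 in JK-treated and 7.05, 6.94 and 6.81 in JINB8-treated cells, against 7.84, 8.0 and 7.87 in untreated cells. The groups did not overlap, as held for many genes (counts given above), with differences of -1.01 ± 0.09 in JK-treated (adjusted p = 6.57e-06) and -0.97 ± 0.09 in JINB8-treated cells (adjusted p = 8.44e-06). HSPB1, which encodes HSP27, differed by -0.45 ± 0.09 in JK-treated (adjusted p = 0.00122) and -0.61 ± 0.09 in JINB8-treated cells (adjusted p = 0.000143), but by 0.32 and 0.24 when arrays were centred on their medians in place of quantile normalization. Of the 6 small heat shock genes, 1 was higher and 3 lower in JK-treated cells (16.7% and 50%, against 26.2% and 22.4% of all genes). In JINB8-treated cells 0 were higher and 3 lower (0% and 50%, against 26% and 23.3%).

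The cytosolic HSP90 genes changed little by this scale. HSP90AA1 differed by -0.19 ± 0.07 in JK-treated cells (adjusted p = 0.0479), a call lost without any of the 6 arrays, and by -0.07 ± 0.07 in JINB8-treated cells (adjusted p = 0.460). HSP90AB1 differed by -0.17 ± 0.08 (adjusted p = 0.117) and -0.21 ± 0.08 (adjusted p = 0.0589, and 0.0423 without JINB8-treated replicate 3). With median centring all 4 of these differences were positive and passed. Among the HSP90 pseudogene entries HSP90B3P was higher (1.27 ± 0.11 in JK-treated and 1.48 ± 0.11 in JINB8-treated cells) and HSP90AB3P lower (-0.70 ± 0.11 in both), with the reserve given above about probes of pseudogenes.

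**Figure D3:**
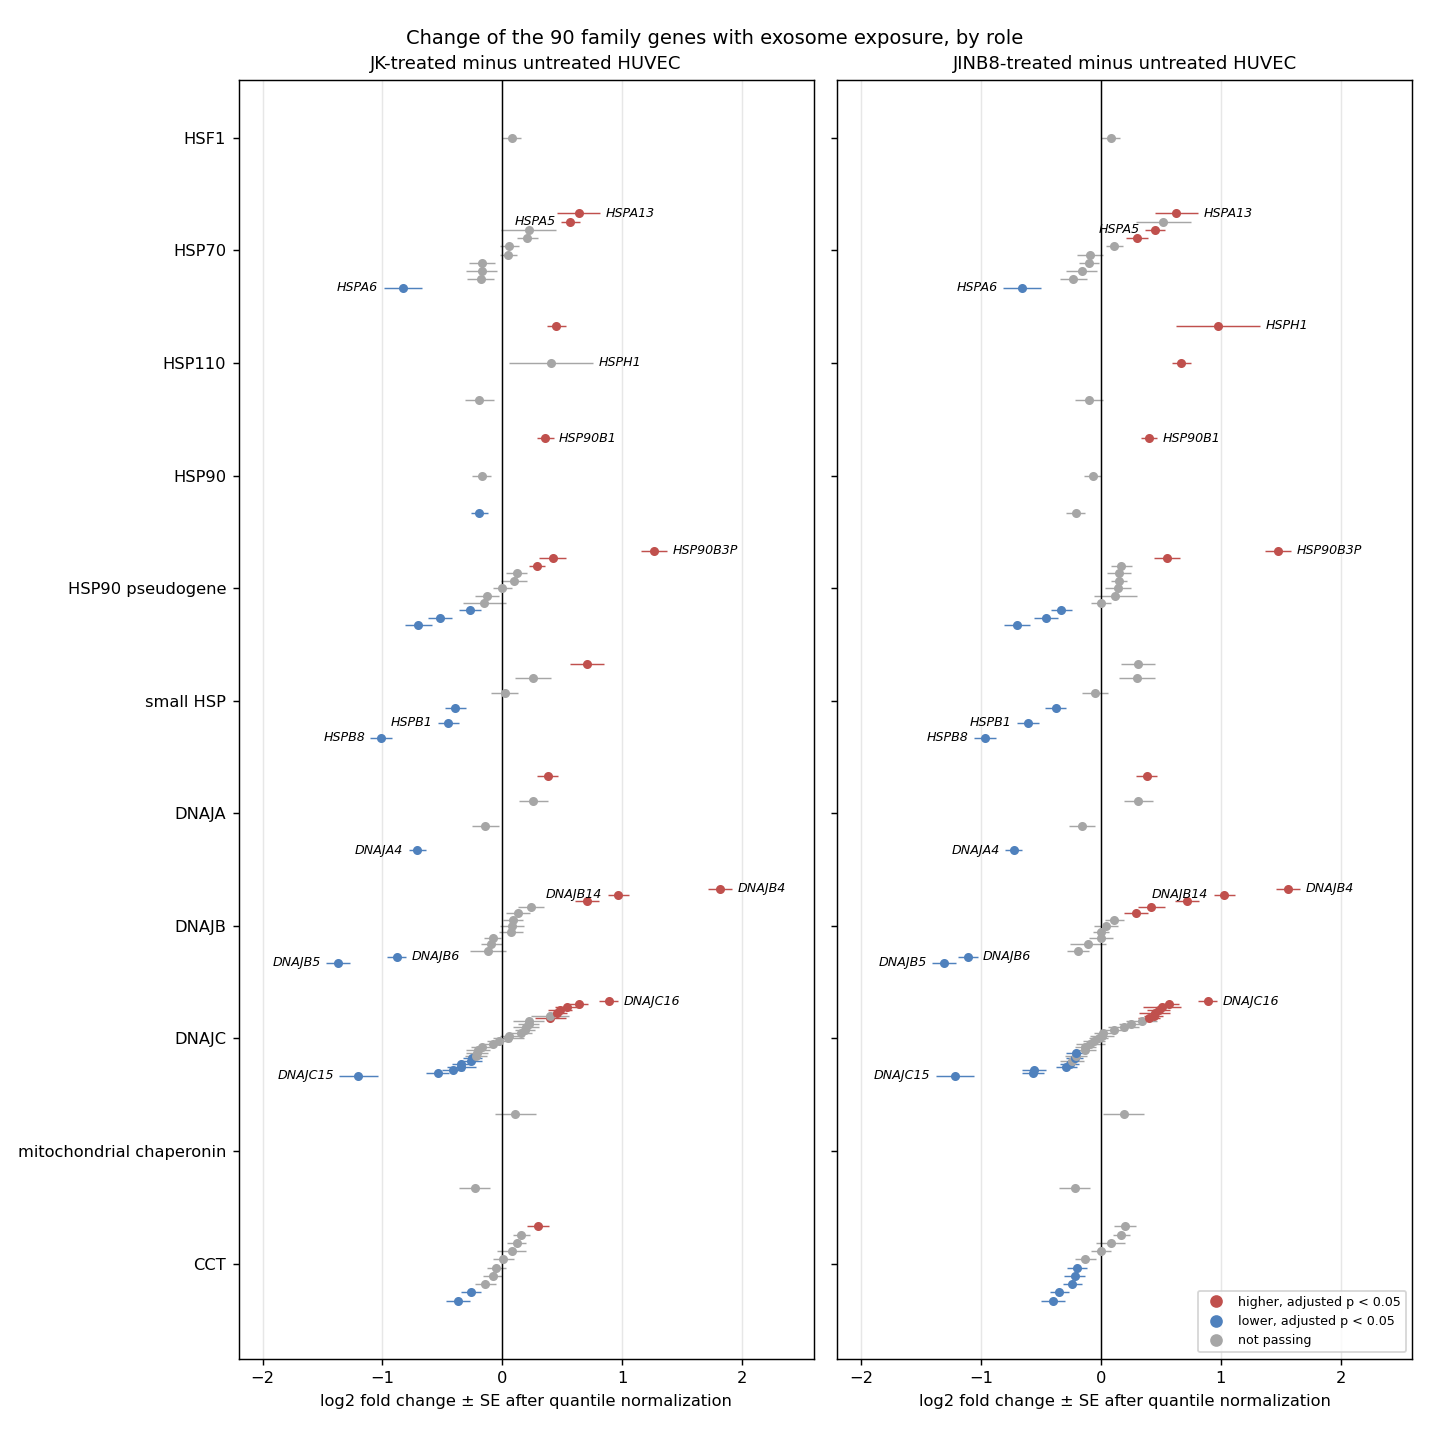
Log2 fold change after quantile normalization (x axis, points, with the standard error as bars) of each of the 90 family genes in JK-treated (left) and JINB8-treated (right) HUVEC against the same 3 untreated arrays, in rows by role. DNAJB4 lies at 1.82 and 1.56, DNAJB5 at -1.37 and -1.31, and red and blue points, which passed the threshold, lie on both sides of 0 in the HSP70, DNAJA, DNAJB and DNAJC rows of both panels.

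Among J-domain genes, DNAJB4 and DNAJB5 changed most, in opposite directions. DNAJB4, a cytosolic partner of HSP70, gave normalized signals of 10.27, 10.32 and 10.13 in JK-treated and 9.93, 10.01 and 9.98 in JINB8-treated cells, against 8.46, 8.59 and 8.19 in untreated cells. It was 3.54-fold higher in JK-treated (1.82 ± 0.10, adjusted p = 2.31e-07) and 2.95-fold higher in JINB8-treated cells (1.56 ± 0.10, adjusted p = 6.47e-07). On the deposited scale it was the only family gene higher in JK-treated cells past the threshold, by 0.35. Between the exposed groups it differed by -0.25 ± 0.12 (adjusted p = 0.544).

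DNAJB5, a close relative of DNAJB4, gave 7.67, 7.54 and 7.48 in JK-treated and 7.56, 7.49 and 7.79 in JINB8-treated cells, against 9.01, 8.81 and 8.96 in untreated cells. It was lower by a log2 difference of -1.37 ± 0.10 in JK-treated (adjusted p = 1.39e-06) and -1.31 ± 0.10 in JINB8-treated cells (adjusted p = 1.7e-06). DNAJC15, of the mitochondrial inner membrane, followed with -1.20 ± 0.16 (adjusted p = 0.000133) and -1.22 ± 0.16 (adjusted p = 0.000107). DNAJA4 was lower by -0.71 ± 0.07 and -0.73 ± 0.07 (adjusted p = 2.03e-05 and 1.48e-05), and DNAJC30 by -0.54 ± 0.10 and -0.56 ± 0.10 (adjusted p = 0.00112 and 0.000757). The calls on DNAJB5, DNAJC15, DNAJA4 and HSPB8 were made in the same direction on the deposited, quantile and median-centred scales.

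DNAJB14, of the endoplasmic reticulum membrane, was higher by 0.97 ± 0.09 in JK-treated and 1.03 ± 0.09 in JINB8-treated cells (adjusted p = 8.5e-06 and 5.16e-06), and DNAJC16 by 0.89 ± 0.08 in both (adjusted p = 4.21e-06 and 4.14e-06). DNAJC18 was higher by 0.64 ± 0.08 and 0.57 ± 0.08. DNAJB8 and HSPB9, which are known mainly from testis and lie among the dim genes, also passed in JK-treated cells, with 0.71 ± 0.10 and 0.71 ± 0.14, and HSPB9 did not in JINB8-treated cells (0.31 ± 0.14, adjusted p = 0.0879). DNAJB1, the J-domain gene most used as a heat shock marker, did not pass in JK-treated (-0.08 ± 0.07, adjusted p = 0.364) or JINB8-treated cells (0.00 ± 0.07, adjusted p = 0.976).

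For DNAJB6, which restrains protein aggregation, and DNAJC19 the 2 probesets of the gene disagreed. The brighter DNAJB6 probeset, used here, differed by -0.88 ± 0.08 in JK-treated and -1.11 ± 0.08 in JINB8-treated cells, while the other differed by 0.97 ± 0.10 and 0.86 ± 0.10, each past the threshold. The brighter DNAJC19 probeset differed by 0.55 ± 0.10 and 0.25 ± 0.10, and the other by -0.87 ± 0.10 and -0.78 ± 0.10. No direction is given for these genes.

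**Figure D4:**
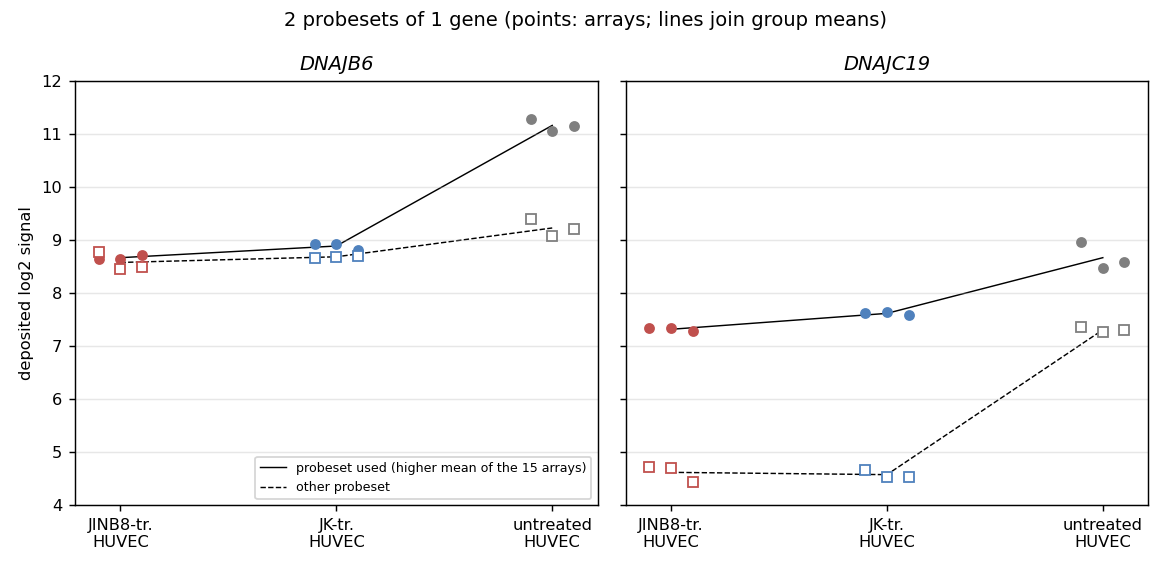
Deposited log2 signal (y axis) of both probesets of DNAJB6 (left) and DNAJC19 (right) on the 9 HUVEC arrays, with filled points for the probeset used and open points for the other. For DNAJB6 the used probeset is 11.06 to 11.28 on the untreated arrays and the other 9.07 to 9.40, while on the exposed arrays both lie between 8.46 and 8.93.

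Of the 10 CCT genes, CCT8 was higher (0.30 ± 0.09, adjusted p = 0.0199) and CCT2 and CCT4 were lower (-0.37 ± 0.10 and -0.26 ± 0.08) in JK-treated cells. In JINB8-treated cells CCT2, CCT4, CCT5, CCT6A and CCT7 were lower, by -0.40 to -0.20, and 0 were higher. Shares of the CCT genes were thus 10% higher and 20% lower in JK-treated and 50% lower in JINB8-treated cells. Of all genes, 26.2% were higher and 22.4% lower in JK-treated cells, and 26% and 23.3% in JINB8-treated cells. Without 1 array, CCT8 lost its call in 3 of 6 fits (adjusted p up to 0.0747) and CCT4 in 1 (0.0564) in JK-treated cells, and CCT5, CCT6A and CCT7 each in 5 of 6 (up to 0.13, 0.133 and 0.151) in JINB8-treated cells. Median centring ended the CCT2 and CCT4 calls in JK-treated cells (-0.11, adjusted p = 0.413, and 0.00, adjusted p = 0.998), and CCT3, CCT5, CCT6A and CCT7 then passed as higher there (0.43, 0.26, 0.24 and 0.28). Under median centring, in JINB8-treated cells, CCT5, CCT6A and CCT7 were at 0.17, 0.16 and 0.26, CCT2 at -0.09 and CCT4 at -0.02, and none of these 5 passed. TCP1 did not pass with 0.16 ± 0.07 in JK-treated and 0.17 ± 0.07 in JINB8-treated cells (adjusted p = 0.0893 and 0.0676), and passed as higher with median centring (0.64 and 0.74). HSPD1 and HSPE1 did not pass in JK-treated (-0.23 ± 0.13 and 0.11 ± 0.17) or JINB8-treated cells (-0.22 ± 0.13 and 0.19 ± 0.17), but HSPD1 passed as lower in both without untreated replicate 2 (-0.40, adjusted p = 0.00319 and 0.00318). Of the 37 co-chaperones and folding helpers outside the family, 4 were higher and 15 lower in JK-treated cells (10.8% and 40.5%). In JINB8-treated cells 6 were higher and 14 lower (16.2% and 37.8%). Their medians were -0.04 in JK-treated and -0.07 in JINB8-treated cells. Of the 18 T cell markers, 2 were higher and 3 lower in JK-treated cells (11.1% and 16.7%). In JINB8-treated cells 1 of these markers was higher and 4 were lower (5.56% and 22.2%). Their mean deposited signal was 4.12 to 4.19 in JK-treated and 4.15 to 4.20 in JINB8-treated cells, against 5.81 to 6.07 in untreated cells, whose arrays as a whole are higher.

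Most family genes were lower in exosome RNA than in the exposed HUVEC. On the deposited values 65 of the 90 family genes were lower in exosome RNA (72.2%, against 49.7% of all genes) and 23 were higher (25.6%, against 45.3%). The median difference was -2.01 for the family and -0.13 for all genes, and -1.15 and 0.23 after quantile normalization over these 12 arrays. T cell against endothelial origin and vesicle against whole cell cannot be told apart here.

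The lowest members were HSPA5, HSP90B1 and DNAJB4. HSPA5 had a lowest, median and highest signal of 3.68, 4.03 and 4.32 on the 6 exosome arrays, against 11.23, 11.37 and 11.46 on the 6 treated HUVEC arrays, a difference of -7.31 ± 0.07 (adjusted p = 5.51e-21). HSP90B1 had 5.32, 5.52 and 5.70 in exosomes, against 11.92, 11.96 and 12.02 in treated HUVEC, a difference of -6.45 ± 0.07 (adjusted p = 1.73e-20). For both genes every exosome array was below every treated HUVEC array, though the exosome and treated HUVEC arrays did not overlap for 16276 of all 18417 genes. HSPA5 was among the dimmest 40% of genes on the exosome arrays, as were DNAJB4, DNAJC10, HSPA13, HSP90AA2P, DNAJC3, DNAJB11 and DNAJB9. No detection call is given, so how far these signals stand above background there is unknown, and the sizes of their differences are uncertain. Of the other endoplasmic reticulum members, not all of which are listed, DNAJC10, the disulphide reductase ERdj5, differed by -5.50 ± 0.06, HSPA13 by -5.26 ± 0.12, DNAJC3 by -4.76 ± 0.09, DNAJB11, which encodes ERdj3, by -3.66 ± 0.07 and DNAJB9 by -3.26 ± 0.06. DNAJB14, also dim on the exosome arrays, had a lowest, median and highest signal of 3.6, 3.94 and 4.2 there, against 7.56, 7.74 and 7.91 in treated HUVEC. Outside the family, 26 of the 29 endoplasmic reticulum folding and stress genes were lower (89.7%, median -2.67), as were 34 of the 37 co-chaperones (91.9%, median -1.70), against 49.7% of all genes.

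For several cytosolic and mitochondrial chaperones the size, and for some the sign, depended on the scaling. HSPA8 had 7.55, 8.38 and 9.08 in exosomes, against 12.17, 12.27 and 12.34 in treated HUVEC, a difference of -3.92 ± 0.07 (adjusted p = 1.96e-18) on the deposited scale and -1.26 after quantile normalization. TCP1 differed by -3.12 ± 0.06 and by -0.20 after quantile normalization, HSP90AB1 by -3.90 ± 0.10 and -1.31, HSP90AA1 by -4.14 ± 0.06 and -1.89, HSPA9 by -4.00 ± 0.09 and -2.30, and HSPD1 by -2.59 ± 0.07 and -0.59. DNAJB1 differed by -2.24 ± 0.08 and HSPE1 by -1.53 ± 0.12 on the deposited scale. With cyclic loess HSPA8 (1.41), TCP1 (1.08), CCT7 (1.20) and HSPD1 (0.47) passed as higher, and HSP90AB1 was at 0.09 and did not pass. The direction for these genes therefore depends on the scaling. HSPA5, at -5.90, and HSP90B1, at -4.65, stayed far below 0 after quantile normalization, as did DNAJC10 at -4.44 and HSPA13 at -4.30.

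**Figure D5:**
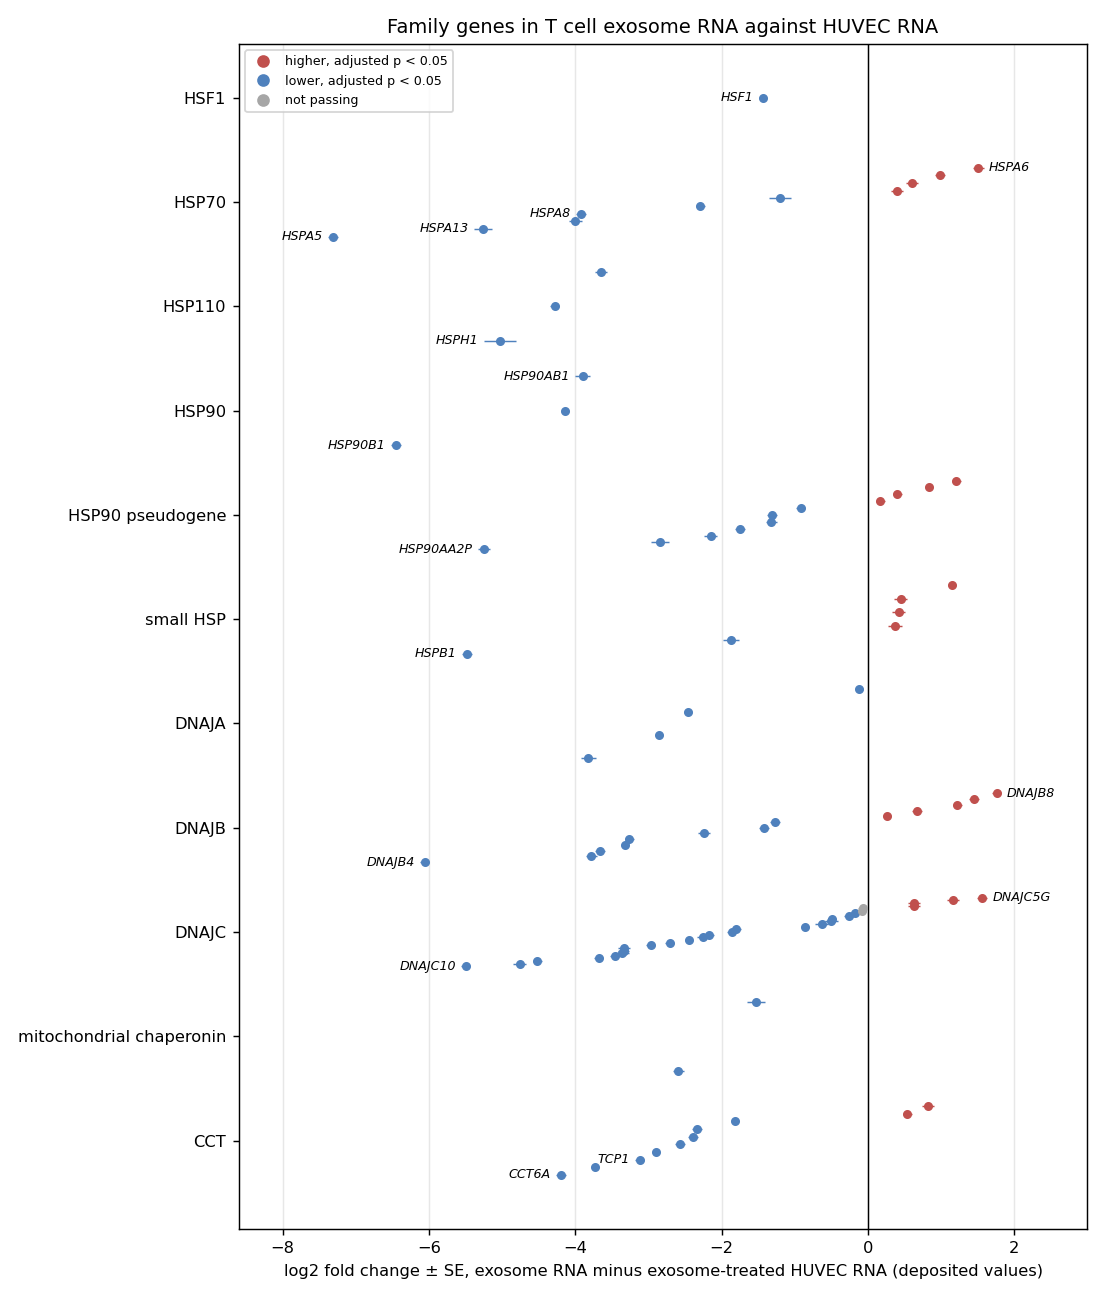
Log2 fold change on the deposited values (x axis, points, with the standard error as bars) of each of the 90 family genes between exosome RNA (6 arrays) and exosome-treated HUVEC (6 arrays), in rows by role. HSPA5 lies at -7.31 and HSP90B1 at -6.45, and DNAJB8, at 1.76, is the highest member.

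DNAJB4 and HSPB1, which are cytosolic, were lower in exosomes by differences of -6.06 ± 0.06 and -5.48 ± 0.07. HSPH1 differed by -5.03 ± 0.22 and the HSP90AA2P entry by -5.25 ± 0.08. Among the members higher in exosome RNA, DNAJB8 had 6.06, 6.25 and 6.29 in exosomes, against 4.35, 4.46 and 4.56 in treated HUVEC (1.76 ± 0.06, adjusted p = 1.33e-14), and HSPA6 had 5.60, 5.66 and 5.99 in exosomes, against 3.96, 4.28 and 4.39 in treated HUVEC (1.51 ± 0.07, adjusted p = 3.04e-12). DNAJC5G (1.56 ± 0.07), DNAJB7 (1.45 ± 0.07), DNAJB13 (1.22 ± 0.06), HSP90AB5P (1.21 ± 0.06), DNAJC12 (1.16 ± 0.08) and HSPB6 (1.15 ± 0.05) followed. HSPA6, DNAJC5G, DNAJB7, DNAJB13, HSP90AB5P and DNAJC12 lay among the dimmest 40% of genes in this comparison. How far their signals stand above background is unknown, and the sizes of their differences are uncertain. When the dimmest 40% of genes were left out, 62 members remained, of which 6 were higher (9.68%, against 27.2% of all genes so tested). HSF1 was lower by -1.44 ± 0.05 on the deposited scale and higher by 0.28 after quantile normalization (adjusted p = 0.000145), so no direction is given for it.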

How the data were processed

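The authors deposited log2 signals per probeset for 15 Affymetrix whole-transcript arrays, made with Affymetrix Expression Console per the submitters' processing notes. The sources used here give neither its version nor the background correction or normalization. Per the labels' protocols, exosomes were precipitated with ExoQuick, RNA was extracted with miRNeasy kits, and 300 ng of total RNA were labelled with biotin.

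The table held 33297 probesets, of which 19460 carry 1 symbol, 1754 several and 12083 none in the platform annotation. A gene with several 1-symbol probesets took the brightest on average (15 arrays), giving 18417 genes, and the family's 90 genes have 94 probesets. A further 10 probesets list a family gene with other symbols and were not used. No value is missing. Detection calls were not given, so whether a signal is above background is unknown. Depth has no meaning for arrays, and 3 arrays a group limit the precision.

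Tests were limma (3.58.1, R 4.3.3) with lmFit and eBayes, Benjamini-Hochberg adjusted over all genes, at adjusted p under 0.05. The comparisons with untreated HUVEC used values quantile-normalized over 9 HUVEC arrays, and all others used deposited values. The fits were 9 HUVEC arrays, 6 exosome arrays, or 12 arrays for exosome RNA against treated HUVEC, and the interaction used the same 12. The fits were checked on simulated data. The members, lists and tests were chosen with earlier results of these data known. Named with values were 15 fixed genes (HSPA1A, a further one, has no probeset of its own), the 8 highest and 8 lowest passing members of each comparison, the 3 smallest p where none passed, and genes added after their values were seen, among them CCT3, CCT5, HSPA2, HSPA4L and DNAJC19. Alternatives were other scalings, a filter on dim genes, the mean of probesets, other variance models, array weights, a replicate block, other arrays in the fit, leaving out each array in turn, and leaving out both treated arrays numbered 3.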

Additional observations from a re-analysis of the deposited data

Results flagged for a closer look

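For 6 family genes the difference between the lines was larger in exosome RNA than in the HUVEC that had received the exosomes, by limma's interaction test at an adjusted p under 0.05. The JINB8 minus JK difference in exosome RNA less that in treated HUVEC was 1.18 for HSP90AB1, 1.13 for HSPA8, 0.80 for TCP1, 0.71 for HSP90AA1, 0.67 for CCT7 and 0.50 for CCT5. CCT5 did not pass within exosomes alone. The interaction shares its exosome arrays with that comparison and is not independent of it. No group holds enough arrays for a test of single outlying arrays.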

How the results depend on the processing

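Scaling decided the comparisons with untreated HUVEC. In JK-treated cells 1 member was higher and 89 lower on the deposited scale (1.11% and 98.9%, against 0.163% and 99.3% of all genes), and 38 were higher and 13 lower with median centring (42.2% and 14.4%, against 35.1% and 19.5%). In JINB8-treated cells these counts were 0 and 88 (97.8% lower, against 99.1% of all genes), and 42 and 13 (46.7% and 14.4%, against 38.1% and 18.7%). The untreated arrays' own level lowers the deposited differences, and there the JK-treated sign turned, with -1.82 for HSPE1, -1.48 for HSF1, -1.40 for DNAJB9, -1.39 for CCT8, -1.31 for DNAJC3, -1.21 for DNAJB8, -1.14 for TCP1, -1.11 for HSPA4L, -1.08 for HSPB9, -1.05 for DNAJC19, -1.0 for HSPH1, -0.92 for DNAJC18, -0.90 for HSPA8, -0.86 for HSPA13, -0.67 for HSP90B1, -0.65 for HSPA5, -0.65 for DNAJB14, -0.63 for HSP90B3P and -0.61 for DNAJC16. In JINB8-treated cells it turned with -1.78 for HSPE1, -1.47 for HSPA14, -1.46 for HSF1, -1.35 for DNAJC19, -1.33 for DNAJC3, -1.24 for DNAJB8, -1.23 for DNAJB9, -1.10 for TCP1, -0.97 for DNAJC18, -0.86 for HSPA13, -0.86 for HSPA4L, -0.84 for HSPA8, -0.78 for HSPA5, -0.63 for HSP90B1, -0.60 for DNAJC16, -0.58 for DNAJB14, -0.44 for HSP90B3P and -0.37 for HSPH1. Median centring turned the JK-treated sign with 0.00 for CCT4, 0.30 for HSP90AA1, 0.32 for HSPB1 and 0.34 for HSP90AB1, and the JINB8-treated sign with 0.16 for CCT6A, 0.17 for CCT5, 0.24 for HSPB1, 0.26 for CCT7, 0.32 for DNAJB1, 0.37 for HSP90AB1, 0.39 for HSPA9 and 0.51 for HSP90AA1. The mean of a gene's probesets gave -0.20 for DNAJC19 and 0.07 for DNAJB6 in JK-treated and -0.27 for DNAJC19 in JINB8-treated cells. In exosome RNA against treated HUVEC, quantile normalization gave 0.06 for CCT7 and 0.28 for HSF1, cyclic loess gave 0.09 for HSP90AB1, 0.47 for HSPD1, 0.92 for HSF1, 1.08 for TCP1, 1.20 for CCT7 and 1.41 for HSPA8, and untreated in place of treated HUVEC, with all 15 arrays quantile-normalized, gave 0.36 for HSF1. The causes were not tested. HSPA9 passed in JK-treated cells without replicate 3 (-0.29, adjusted p = 0.0264). Without the dimmest 40% of genes 6 of 62 members were higher in exosome RNA than in treated HUVEC. Without both treated arrays numbered 3, an alternative added after seeing the data, 2 members were higher and 0 lower between the treated groups, 18 were higher and 19 lower in JK-treated cells, and 25 and 19 in JINB8-treated cells. Leaving out each array in turn gave 17 to 23 members higher and 15 to 19 lower in JK-treated cells, 17 to 25 and 15 to 22 in JINB8-treated cells, 0 and 0 between the treated groups, 4 to 6 and 0 between the exosomes, and 23 and 64 to 65 for exosome RNA against treated HUVEC. Shares of all genes in these fits are not given beside the counts. The counts thus show how stable the calls were, and not whether the family moved apart from other genes.

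The replicate numbers did not pair the samples: deviations of same-numbered arrays correlated at -0.04 to 0.35 (JK-treated and untreated), -0.02 to 0.05 (JINB8-treated and untreated), -0.45 to -0.18 (JINB8-treated and JK-treated) and -0.04 to 0.03 (JINB8 and JK exosomes). With the replicate block 20 members were higher and 17 lower in JK-treated cells, 20 and 19 in JINB8-treated cells, 0 and 0 between the treated groups, 6 and 0 between the exosomes, and 23 and 65 for exosome RNA against treated HUVEC. These counts too are given without the shares of all genes and show only how stable the calls were. The HSPA8, HSP90AA1, HSP90AB1 and TCP1 calls between the exosomes held under all alternatives run. Dim signal limits 26 members in the comparisons with untreated HUVEC and 50 between the exosomes.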
